A study of Mus musculus with 2 samples.

Results

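The cells described here are 448 of the 13683 thymus cells of the series, the later of the CD4+ or CD8+ single-positive (SP) thymocytes that had not yet joined the most mature SP cluster. They were chosen by the deposited cluster labels. Cluster 6 of the 19 current clusters was split at the finer clustering resolution of 1.8, and its 2 largest pieces held 448 and 302 cells, with 45 further cells in small pieces. The piece with the lower share of Itm2a UMIs (unique molecular identifiers, 1 per captured transcript) was taken. Itm2a, a membrane protein gene switched on at positive selection, stood at 1481 counts per 1e+06 UMIs (CPM) in the piece taken and at 2397 CPM in the other, and because the rule used it this difference is a description. The 302 cells are called the early SP cells below, and the 728 cells of cluster 7, which is high in Ms4a4b, are called the mature SP cells.

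Thymocytes that pass positive selection leave the double-positive (DP) stage, keep either Cd4 or Cd8, and spend their last days in the medulla before they exit into blood. On the way they lose Ccr9, Cd69 and Cd24a, gain the chemokine receptor Ccr7 and the survival cytokine receptor Il7r, and late in the process turn on Klf2, the factor that drives the exit receptor S1pr1, together with interferon-stimulated and MHC class I genes. Cdc42 is a small GTPase that organizes actin, and ezrin and moesin link actin to the membrane of the microvilli that cover T cells.

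Whole thymus was taken from 6-week-old mice, and 1 library per condition was made, each pooled from 5 mice. The WT library came from Cdc42f/f mice and the KO library from Cdc42f/f CD4Cre littermates, in which the CD4 promoter drives Cre, so both carry the floxed allele and deletion starts only as thymocytes express CD4. With 1 library per condition no difference between conditions has a replicate check, and no p-value is given. Levels are UMIs summed over the cells of a library and written as CPM, and ratios are log2 of KO over WT with 0.5 added to each count. Their 95% intervals are exact binomial ones that cover counting error only. The genotype, the animals and the preparation of each library cannot be told apart.

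The WT library held 29706197 UMIs in 6115 cells and the KO library 37920214 UMIs in 7568 cells. The members contributed 2183668 UMIs in 316 WT cells (median 6175 a cell, 1166 to 27051) and 850874 UMIs in 132 KO cells (median 5823, 887 to 22017). Mitochondrial genes took a median of 4.09% of a member's UMIs in WT and 4.51% in KO. Cdc42 itself read 377 CPM in WT members and 405 CPM in KO members (log2 ratio 0.11, −0.08 to 0.29). The kit counts the 3′ ends of transcripts, whereas the floxed segment is exon 2, so this level checks neither the deletion nor the labels, and the names WT and KO below stand for the libraries labelled so. In the early SP cells Cdc42 read 470 and 372 CPM, and in the mature SP cells 447 and 582 CPM.

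The later SP cells made up 5.17% of WT cells (exact 95% interval 4.63 to 5.75) and 1.74% of KO cells (1.46 to 2.07), a ratio of 0.338 (0.273 to 0.415). Among the cells of clusters 6 and 7 alone they made up 39.0% in WT and 18.5% in KO, a ratio of 0.476 (0.385 to 0.585). The early SP cells held 2.32% and 2.11% of their libraries and the mature SP cells 5.43% and 5.23%, so the smaller KO share lay in the later SP cells and not in the groups on either side of them. These clusters were drawn from genes that differ between the libraries, so the shares describe the deposited partition and not the number of cells at a stage.

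The markers of the SP label were present. Ccr7, the receptor that leads thymocytes into the medulla, read 216 CPM in WT members and 170 CPM in KO members, against 5.17 and 7.38 CPM in the 3 clusters highest in Rag1, which are used below as the DP reference. Il7r read 357 and 274 CPM in members and 0.739 and 0.0984 CPM in the DP reference. Cd40lg, the CD40 ligand of helper T cells, read 81.5 and 120 CPM in members and had no UMI in the 2470 WT and 3273 KO cells of the DP reference. With each cell thinned to 2000 UMIs, Ccr7 was seen in 29.3% of WT and 26.4% of KO members against 1.40% and 1.00% of the DP reference, and Il7r in 33.4% and 25.6% against 0.400% and 0% (0 of 500 cells drawn from the KO reference, with an exact upper limit of 0.735%). Rag1, the recombinase gene of DP cells, stood at 57.7 and 78.7 CPM in members; the 3251 and 2985 CPM of the reference follow from how it was chosen.

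The members stood between the early and the mature SP cells in both libraries, as the plot of levels across the 3 SP groups shows. Ccr9, the receptor for the cortical and medullary chemokine CCL25, read 620 CPM in WT and 1062 CPM in KO members, below the 1683 and 1793 CPM of early SP cells and above the 241 and 333 CPM of mature SP cells. Ms4a4b read 428 and 249 CPM, against 59.8 and 48.8 CPM in early and 1591 and 1874 CPM in mature SP cells. S1pr1, the exit receptor, was still low at 26.6 and 23.5 CPM, where mature SP cells had 261 and 643 CPM. Of 5640 genes compared with the early SP cells, 137 were at least 1.5-fold higher and 158 lower in the members in both libraries, and against the mature SP cells 418 were higher and 311 lower of 6990. The strongest genes over the early SP cells were H2-Q7, Igfbp4, S100a6, Xcl1, Cd7, Tnfrsf4, Nkg7, Lfng, Slfn1 and Ms4a4b, and those lower included Trbc1, Aqp11, Ctsl and Arpp21. Because clusters are formed from these genes, these lists describe the cells and test nothing. Several of the higher ratios also rest on a reference near 0. Early SP cells of WT and KO held 2 and 0 UMIs of H2-Q7 and 3 and 1 of S100a6. Igfbp4 read 1.36 and 2.22 CPM there, and Xcl1 0 CPM in WT. In KO members 14 of the 17 H2-Q7 UMIs were in 1 cell, and single cells rich in Xcl1 and S100a6 are set apart below.

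**Figure D1:**
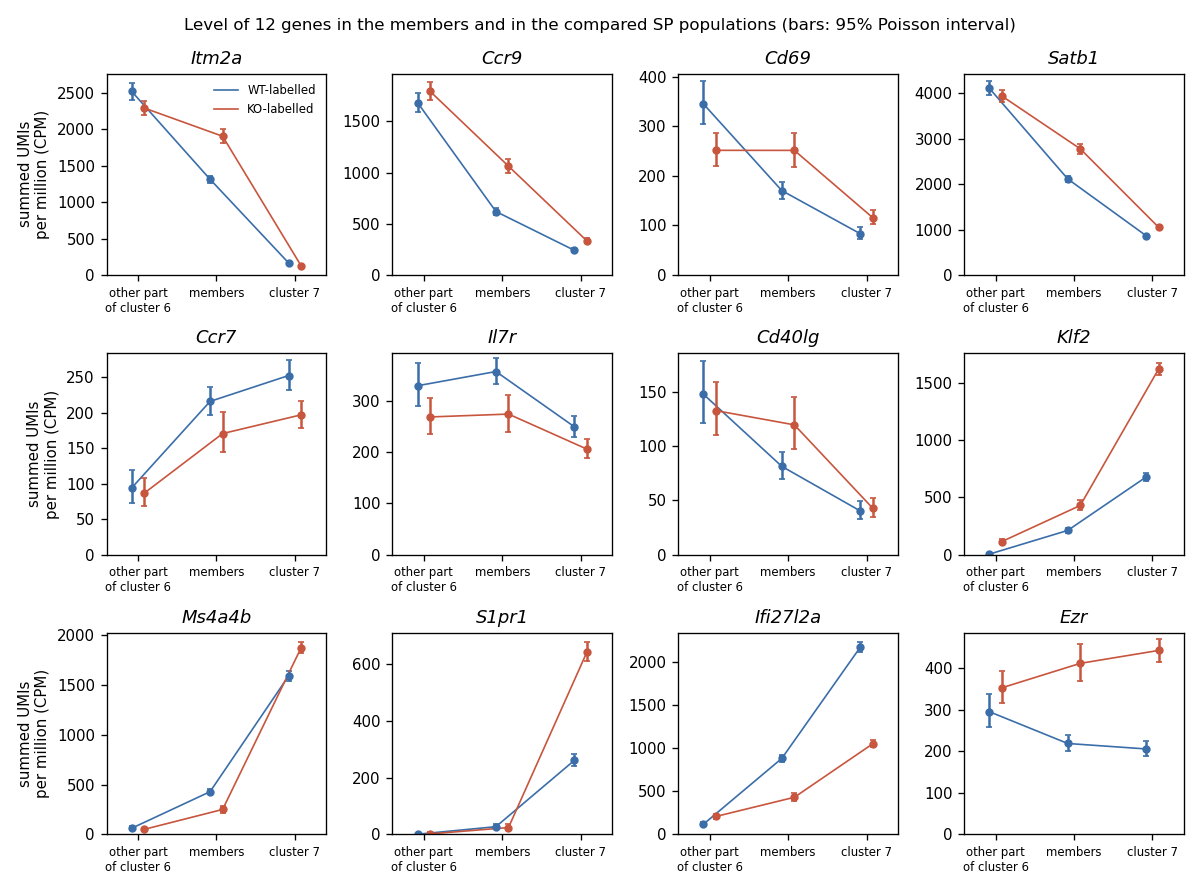
Level of 12 genes in the early (other part of cluster 6), the later (members) and the mature SP cells (cluster 7) of each library, in CPM with 95% counting intervals. Ccr9 and Itm2a fall and Ms4a4b and Klf2 rise from early to mature in both libraries, and in the later SP cells Ccr9 reads 620 CPM in WT and 1062 CPM in KO.

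The members held cells of both lineages. By coreceptor UMIs, 30.4% of WT members had only Cd4, 30.7% only Cd8a or Cd8b1, 23.7% both and 15.2% neither, and in KO members the shares were 33.3%, 16.7%, 37.9% and 12.1%. The smaller Cd8-only and larger double class in KO are the visible differences. Thinned to 2000 UMIs the Cd8-only class held 35% of WT members (29.8 to 40.6) and 17.8% of KO members (11.7 to 25.5). The cluster highest in Cd74, an antigen-presenting cell gene, had Cd8 UMIs without Cd4 in 24.0% of 25 WT cells and 25% of 68 KO cells after the same thinning, and Cd4 UMIs without Cd8 in 4% and 1.47%. Whether Cd8 UMIs in that cluster are free RNA or its own was not tested, and the KO share of Cd8-only members was no higher than the share there. Zbtb7b, the CD4-lineage factor, read 79.1 CPM in WT Cd4-only cells against 6.98 CPM in Cd8-only cells, and 106 against 26.6 CPM in KO. Runx3, the CD8-lineage factor, read 40.3 against 240 CPM in WT and 27.3 against 166 CPM in KO. Gata3 was higher in Cd4-only cells in WT (119 against 36.3 CPM, log2 ratio 1.70, 1.06 to 2.42), while in KO the interval held 0 (215 against 140 CPM, 0.60, −0.11 to 1.41). Gpr183, an oxysterol receptor, was likewise higher in Cd4-only cells (109 against 18.1 CPM in WT, 184 against 33.3 CPM in KO), as was Il7r (440 against 152 CPM and 369 against 133 CPM).

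Across all genes with at least 50 UMIs in the members, 498 of 6319 (7.88%) were called higher in KO and 153 (2.42%) lower, where a call is a change of at least 1.5-fold with an interval that leaves out 0. The median gene lay 0.17 above 0 on the log2 scale, and the 112 ribosomal protein genes tested lay below it, with a median of −0.41, 16 called lower and none higher, and a summed level of 264204 CPM in WT and 195103 CPM in KO. Measured from the median gene the calls were 217 higher and 344 lower, so the balance of the 2 directions depends on the scaling. For a gene list the count of calls and the median are therefore read against 7.88%, 2.42% and 0.17. Each of the 4 other scalings moved every ratio down by a fixed amount. None of these genes was called the other way, and all 153 lower calls were kept. A downward shift cannot remove a lower call, so this is no check of them. Other alternatives can remove one. Leaving out the 5% of members with most UMIs kept 111 of the 153. Leaving out members with 3 or more UMIs of B, macrophage, dendritic or proliferation markers kept 62. The calls of Cap1, Icam2, Itgb7, Cd6, Rel, Bcl2l1 and Zfp36 given below were lost relative to the median gene, with DESeq2 size factors and with TMM, and those of Ccr9, Nr4a1 and Cd44 with TMM alone of these scalings. With TMM the higher calls went from 4 to 2 in the early SP list and from 4 to 2 in the receptor signal list. Among microvillus genes they went from 3 to 1, and among adhesion genes from 3 to 0. Under each of the 4 other scalings 1 gene was called lower in the early SP list and 1 in the receptor signal list. The main scaling, used below, called none lower in either.

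**Figure D2:**
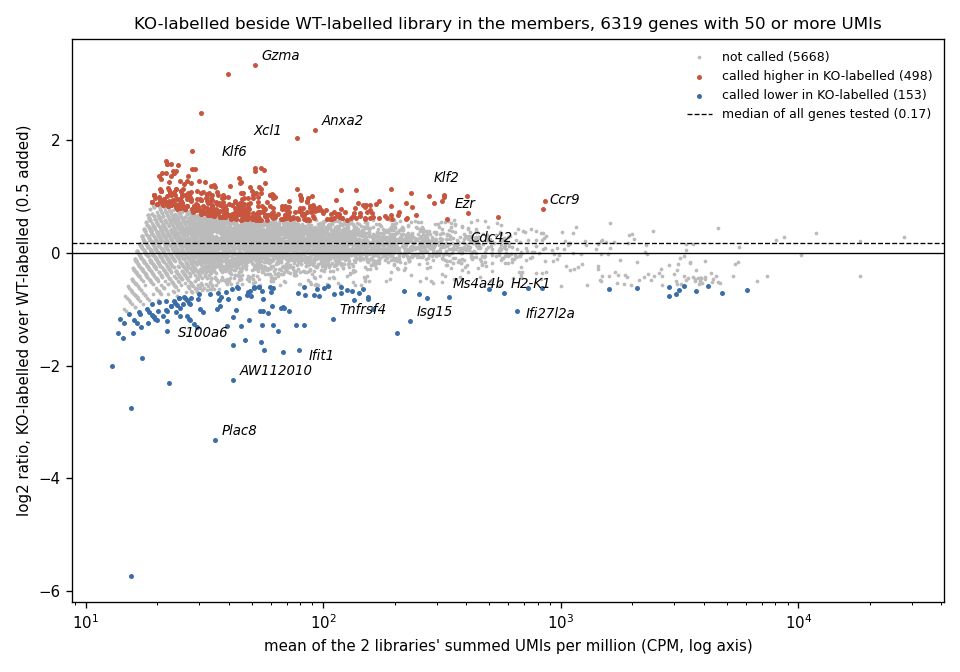
Log2 ratio of KO over WT in the 448 cells for 6319 genes, by the mean CPM of the libraries (log axis). Called genes are coloured, 498 higher and 153 lower in KO, and the dashed line is the median gene at 0.17. Isg15, Ifit1 and Ifi27l2a lie among the lower genes and Anxa2 and Klf2 among the higher ones.

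The clearest group among the lower genes were the interferon-stimulated genes, which in SP thymocytes come on with late maturation. Of the 25 list genes tested, 14 were called lower in KO and none higher, and 24 lay below 0, with a median of −0.72 (−0.89 from the median gene). Several of their promoters carried the short repeat bound by the interferon factors ISGF3 and IRFs, written here as GAAANNGAAA or, on the other strand, TTTCNNTTTC. The stretches below are shown because they hold this motif in genes that were lower in KO. They come from RefSeq on GRCm38.p6, are read 5′ to 3′ on the strand of the gene, and have the matches in capitals, overlapping ones run together.
Isg15, chr4:156200857-156200926, minus strand: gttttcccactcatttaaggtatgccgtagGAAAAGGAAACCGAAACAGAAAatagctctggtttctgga
Bst2, chr8:71537563-71537632, minus strand: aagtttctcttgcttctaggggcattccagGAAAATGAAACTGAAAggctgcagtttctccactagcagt
Ifit1, chr19:34640755-34640824, plus strand: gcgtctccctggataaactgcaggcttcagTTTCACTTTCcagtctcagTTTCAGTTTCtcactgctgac
Igtp, chr11:58199492-58199555, plus strand: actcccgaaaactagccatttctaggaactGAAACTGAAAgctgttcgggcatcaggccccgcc
Irgm1, chr11:48871421-48871480, minus strand: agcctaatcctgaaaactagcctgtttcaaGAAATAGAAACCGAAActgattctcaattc

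Isg15 carried 3 overlapping matches that began 78 bases before its start, Bst2 and Irgm1 2 overlapping ones each, Ifit1 2 separate ones and Igtp 1. The motif stood on either strand in 3.44% of all 32851 promoter windows, which run from 250 bases before to 50 after a start. Among the tested genes with a window it stood in 24 of the 117 called lower (20.5%), in 18 of the 396 called higher (4.55%) and in 3.56% of those not called. Outside the interferon and MHC class I lists, 19 of 102 genes called lower held it (18.6%). Whether those 19 respond to interferon was not tested, and the genes were picked by the same calls. Within the interferon list it stood in 9 of 19 (47.4%) and within the MHC class I list in 5 of 17 (29.4%), called or not. Of the genes in these lists that were called lower, only Isg15, Bst2, Ifit1, Igtp and Irgm1 held it. No MHC class I gene called lower did. A match is a run of letters and not a bound site.

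Isg15, a ubiquitin-like protein, had 710 UMIs in 139 of 316 WT members and 119 in 29 of 132 KO members, or 325 and 140 CPM (log2 ratio −1.21, −1.51 to −0.94). Ifi27l2a, a small mitochondrial protein, read 881 CPM in WT and 429 CPM in KO (−1.04, −1.20 to −0.88). Ifit1, which binds viral RNA, read 121 and 36.4 CPM (−1.72, −2.32 to −1.20). All 3 were lower in KO by more than counting error, and each lay further from 0 when the cell with most of its UMIs was left out of either library. Leaving out 1 cell takes a larger share of the KO members and also moved the median gene down, from 0.17 to 0.12. Among the transcription factors that carry the interferon signal, Irf9 read 79.7 and 37.6 CPM (−1.06, −1.68 to −0.53) and Irf1 71.4 and 40.0 CPM (−0.82, −1.42 to −0.30). Of the effectors, Bst2, which tethers virions, gave −0.84 and the GTPases Igtp and Irgm1 −1.28 and −0.71. Gbp2, another GTPase, was the 1 list gene above 0 (0.34, −0.22 to 0.86).

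**Figure D3:**
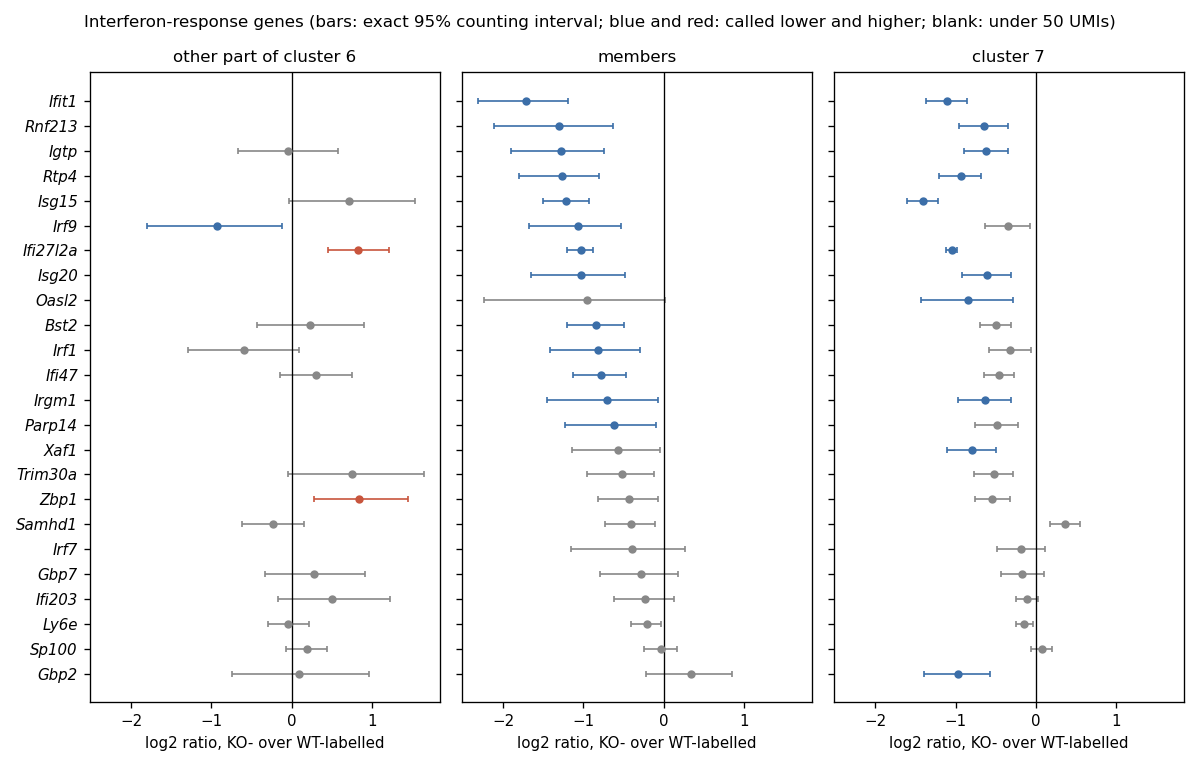
Log2 ratio of KO over WT, with 95% counting intervals, for interferon-stimulated genes tested in the later SP cells, beside the early (other part of cluster 6) and the mature SP cells (cluster 7). In the later SP cells every gene drawn except Gbp2 lies below 0, and Ifi27l2a lies at 0.83 in early SP cells and at −1.04 in the later ones.

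The lower level did not extend to the early SP cells. Ifi27l2a read 116 CPM in WT and 206 CPM in KO early SP cells, a ratio of 0.83 (0.46 to 1.22), so the ratio of the later SP cells was lower by 1.87 (1.46 to 2.27), and Isg15 gave 0.72 (−0.03 to 1.54) in the early SP cells. Over the list, 2 of the 16 genes tested there were called higher and 1 lower, with a median of 0.26, beside 3.87% higher, 1.85% lower and a median of 0.05 over the 4759 genes tested there. In the mature SP cells 13 of 28 were called lower and 1 higher, with a median of −0.53, beside 3.03% lower, 16% higher and a median of 0.24 over 7491 genes, and Isg15 read 365 and 137 CPM. The median of the list was thus below 0 in the later and the mature SP cells and above 0 in the early ones. A lower share in KO was not confined to SP cells. In the cluster highest in Cd74, Isg15 was seen in 28% of 25 WT thinned cells (12.1 to 49.4) and 5.88% of 68 KO ones (1.63 to 14.4). Ifi27l2a was seen there in 68% and 54.4%. In the thinned DP reference the WT and KO shares were 1.6% and 2.4% for Isg15 and 2% and 7.2% for Ifi27l2a.

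Cell by cell, the summed UMIs of the list after thinning to 2000 UMIs had a median of 6 in 314 WT members (quartiles 3 and 10.75, highest 58) and of 3 in 129 KO members (quartiles 2 and 5, highest 59). Sums above the WT median were found in 44.9% of WT and 17.8% of KO members (11.7 to 25.5). Single KO cells reached the highest WT sums, while the KO median equalled that of the early SP cells, which was 3 in both libraries. In the mature SP cells the medians were 12 and 7. By coreceptor class, within Cd4-only members its median ratio was −0.86, within Cd8-only members −0.89, and with WT members weighted to the KO class shares −0.64. Single genes were less even: Isg15 read 246 CPM in WT and 85.4 CPM in KO Cd4-only members and 460 and 113 CPM in Cd8-only members, whereas Ifi27l2a read 1037 and 389 CPM in Cd4-only but 826 and 766 CPM in Cd8-only members, where it was not called.

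**Figure D4:**
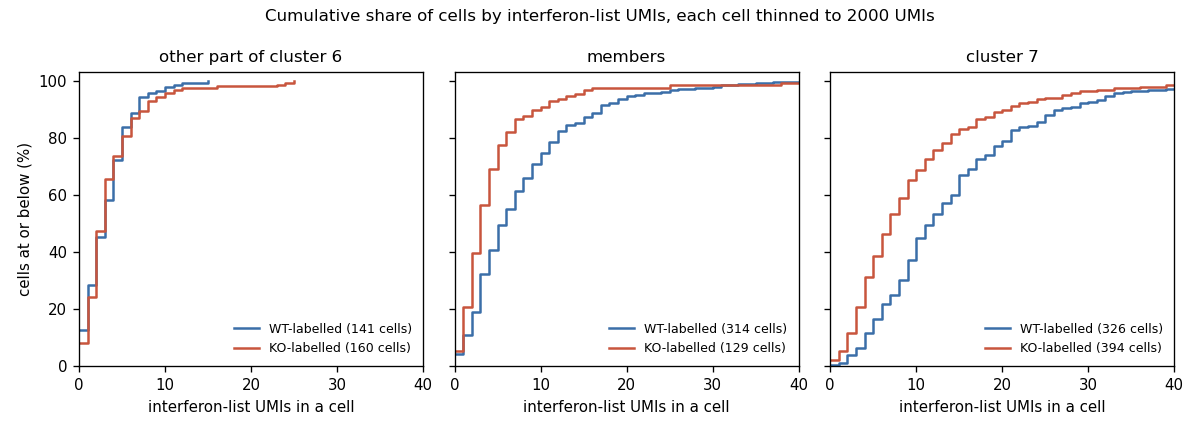
Share of cells (percent) at or below each summed UMI count of the interferon-stimulated list, with each cell thinned to 2000 UMIs, for the early (other part of cluster 6), later (members) and mature SP cells (cluster 7) of each library, up to 40 UMIs. In the later SP cells the KO curve rises earlier, with a median of 3 UMIs against 6 in WT, while the early SP curves share a median of 3.

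MHC class I genes, which present peptides on all nucleated cells and also rise late in SP maturation, moved in the same direction. Of 19 tested, 6 were called lower and none higher, 18 lay below 0, and the median was −0.35 (−0.52 from the median gene). H2-K1, a class I heavy chain, read 716 CPM in WT and 440 CPM in KO (−0.70, −0.87 to −0.54), whereas the other classical heavy chain gene, H2-D1, read 774 and 735 CPM (−0.08, −0.21 to 0.06). The 2 heavy chain genes of the same class thus differed in their ratio. B2m, the light chain, read 1203 and 804 CPM (−0.58, −0.70 to −0.46), just under the size of a call. The immunoproteasome subunit Psmb9 gave −0.81, the loading factor tapasin (Tapbp) −0.61 and the class I transactivator Nlrc5 −1.04 on 60 and 11 UMIs. H2-Q7 gave −1.64 but has near-identical neighbours in the H2-Q family, so its reads may be split among them. It was found in 44 WT and only 3 KO members, with 14 of its 17 KO UMIs in 1 cell. Without the cell with most of its UMIs in each library it gave −3.79.

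Genes of the early SP stage stood higher in KO members. Of 17 tested, 4 were called higher and none lower, with a median of 0.56 (0.39 from the median gene). Ccr9 had the ratio 0.78 (0.65 to 0.90), a call lost with TMM scaling, while it gave 0.09 (−0.02 to 0.20) in the early SP cells. Cd24a, a glycoprotein lost on maturation, read 40.3 CPM in WT and 82.3 CPM in KO (1.03, 0.56 to 1.5), and the chemokine receptor Ccr4 29.8 and 82.3 CPM (1.47, 0.96 to 1.98). Cd69, which holds cells in the medulla by pulling S1pr1 inside, read 170 and 252 CPM (0.56, 0.31 to 0.81) and just missed a call. Itm2a, a gene of this list, was used to choose the cells, so its 1315 CPM in WT and 1906 CPM in KO members are a description. Without Itm2a, 4 of 16 genes were called higher and none lower, with a median of 0.56. Summed per cell at 2000 UMIs, the list without Itm2a had a median of 10 in 314 WT members and 14 in 129 KO members, against 18 and 19 in the early SP cells. The median of the whole list was 0.63 within Cd4-only members, 0.26 within Cd8-only members and 0.49 with WT members weighted to the KO classes.

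The genes of late SP maturation divided. Of 19 tested, 2 were called higher and 4 lower, with a median of 0.02, below that of all genes, which ranged from −0.22 to 0.15 over the alternatives. The lower ones were Ms4a4b (−0.78, −1.0 to −0.56), its relative Ms4a6b (217 and 108 CPM, −1.0), Slfn1, a regulator of quiescence (139 and 83.4 CPM, −0.73), and Plac8, which had 140 UMIs in 22 WT members and 5 UMIs in 4 KO members (−3.32, −5.09 to −2.19). With members holding 3 or more UMIs of B, macrophage, dendritic or proliferation markers left out, 16 list genes were tested. Of these, 2 were called higher and none lower, with a median of 0.13, beside 0.15 over all genes. In the mature SP cells, where the median gene lay at 0.24, none of the 4 was called lower: Ms4a4b gave 0.24, Slfn1 0.11, Ms4a6b −0.0024 and Plac8 −0.54 (−0.78 to −0.30). Against these, Klf2 read 212 CPM in WT and 430 CPM in KO (1.02, 0.82 to 1.22), and was seen in 107 of 316 and 74 of 132 members. Within Cd4-only members it read 185 and 260 CPM and was not called, and within Cd8-only members 264 and 652 CPM. It was higher in KO in every SP group, at 4.08 and 114 CPM in early and 679 and 1626 CPM in mature SP cells. The early WT value is near the floor, since 3 of 142 WT early SP cells held a Klf2 UMI, against 40 of 160 in KO. Outside the SP cells, Klf2 was seen in 20% of 25 WT and 54.4% of 68 KO thinned cells of the cluster highest in Cd74. S1pr1, the target of Klf2, did not follow it in the members (−0.15, −0.99 to 0.58), although S1pr1 gave 1.30 (1.16 to 1.44) in the mature SP cells.

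**Figure D5:**
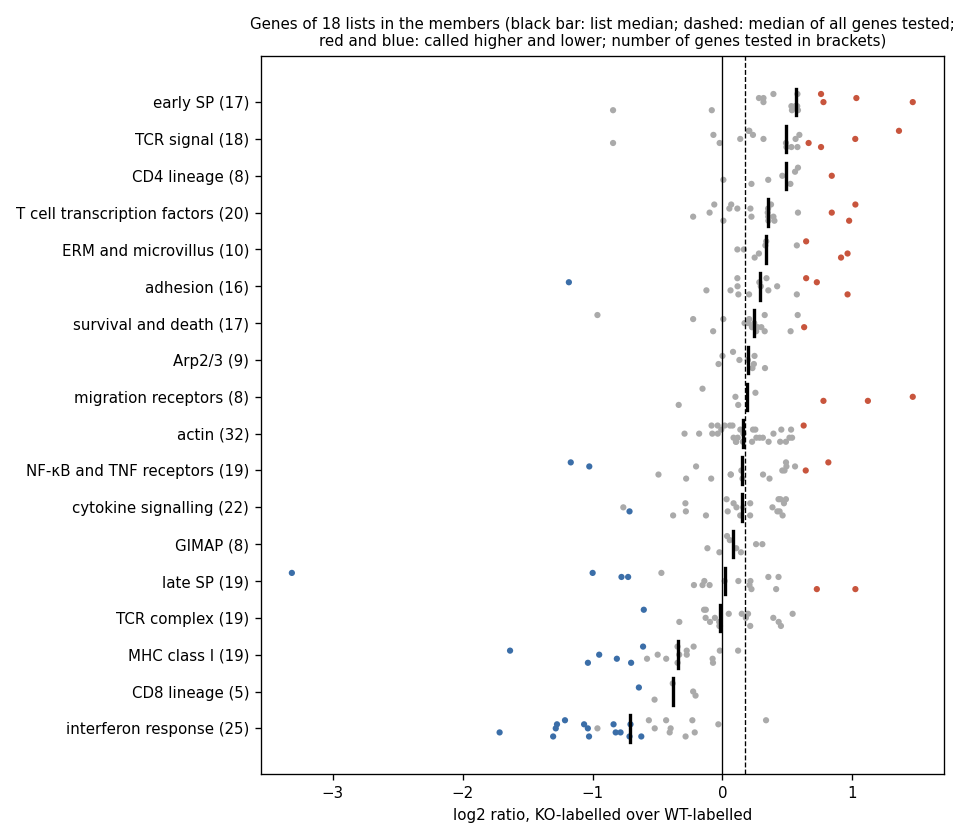
Median log2 ratio of KO over WT in the later SP cells for 18 gene lists, with the points of its genes and the median of all genes tested at 0.17. The interferon list lies lowest of the lists with 10 or more genes tested, at −0.72, and the early SP list lies at 0.56.

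Targets of the T cell receptor were somewhat higher. Of 18 signal-response genes tested, 4 were called higher and none lower, with a median of 0.49. They were Nr4a1 (76.5 and 129 CPM, 0.76), Nfkbid, a nuclear NF-kB regulator (39.4 and 79.9 CPM, 1.02), the scavenger receptor Cd6 (0.66) and the inhibitory receptor Pdcd1 (1.36 on 28 UMIs in each library). Cd5, which tracks receptor signal strength, read 354 and 529 CPM (0.58), just short of a call. Of the 19 receptor complex and proximal signalling genes, only the phosphatase Ptpn22 was called, lower by 0.61, and their median was −0.02. Among 20 T cell transcription factors 3 were called higher, Klf2, Klf3 (0.98) and Gata3, a CD4-lineage factor (112 and 201 CPM, 0.84, 0.55 to 1.13). Gata3 and Cd4 (165 and 237 CPM, 0.52) belong to the CD4 list, with 1 of 8 called and a median of 0.49, while the CD8 list had Nkg7 called lower (−0.64), Cd8a at 374 and 260 CPM (−0.52) and a median of −0.38. The Cd8-only class was also smaller in KO members, and since the classes are defined by Cd4, Cd8a and Cd8b1, which belong to these lists, its part in them was not tested. With WT members weighted to the KO classes the calls of Gata3, Nkg7, Ms4a4b, H2-K1, Irgm1, Parp14, Icam1, Icam2, Bcl2l1, Ptpn22 and Jund were lost.

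Of the cytoskeletal genes, ezrin stood out. Ezr read 218 CPM in WT and 411 CPM in KO members (0.91, 0.71 to 1.12) and was seen in 72.5% and 86.4% of cells. In the early SP cells it read 295 and 352 CPM (0.26, 0.00 to 0.51), so its ratio was larger in the members by 0.66 (0.34 to 0.98), and in the mature SP cells 205 and 443 CPM (1.11). The ratio thus lay above 0 in all 3 groups, with the early interval starting at 0.00, and the members differed from the early SP cells in its size. Of 10 ezrin-moesin and microvillus membrane genes 3 were called higher, the others being Cd44, the hyaluronan receptor (0.96 on 37 and 28 UMIs), and the adhesion ligand Icam2 (0.64), and moesin (Msn) read 539 and 655 CPM (0.28). Cdc42ep3, a Cdc42 effector, was called higher (1.09 on 29 and 24 UMIs). Of the 9 genes of the Arp2/3 complex, which branches actin, none was called and the median was 0.20. Of 32 other actin genes only Cap1, a cyclase-associated protein, was called (0.63), with a median of 0.16, near that of all genes.

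Genes of adhesion and costimulation were split as well. Among 16 adhesion genes, Itgb7 (0.73), Cd44 and Icam2 were called higher and Icam1, a ligand of LFA-1, lower (22.4 and 9.40 CPM, −1.18 on 49 and 8 UMIs). Of 19 NF-kB and TNF receptor family genes, the subunits Rel (0.64) and Relb (0.82) were called higher, and the costimulatory receptors Tnfrsf4, also called OX40 (152 and 67 CPM, −1.17, −1.61 to −0.77), and Icos (96.6 and 47.0 CPM, −1.02) lower. Both receptors were lower in the mature SP cells too, by ratios of −1.77 and −1.85. Of 22 cytokine signalling genes 1 was called, lower, and Il7r gave −0.38 (−0.60 to −0.17). Of 17 survival genes only Bcl2l1 was called (0.63), while Bcl2 gave −0.07. Of the 8 migration receptors tested, Ccr9, Ccr4 and Gpr183 (74.6 and 162 CPM, 1.12) were called higher, and Ccr7 gave −0.34 (−0.62 to −0.07). No GIMAP gene was called among 8, and 1 of 13 glycolysis genes was.

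The genes furthest from 0 with at least 100 UMIs held single-cell signals that need to be set apart. Gzma, a killer cell granzyme, gave 3.33, but 75 of its 80 KO UMIs were in 1 cell, and Xcl1 gave 2.04 with 87 of 106 KO UMIs in 1 cell and 0.34 without it. S100a6 gave −1.54 with 68 of its 153 WT UMIs in 1 cell, and was found in 8 members of each library. By contrast Anxa2, a membrane and actin binding annexin, was spread over cells: it read 33.4 CPM in 42 of 316 WT members and 152 CPM in 51 of 132 KO members (2.18, 1.76 to 2.62), and gave 2.08 without its highest cells. Klf6 (28.4 and 81.1 CPM, 1.51), the tubulin gene Tubb2a (1.5), Map4, which binds microtubules (1.45), and Ccr4 followed. At the lower end stood Plac8, the non-coding transcript AW112010 (69.6 and 14.1 CPM, −2.25), the protease gene Ctsl (105 and 30.6 CPM, −1.76) and Ifit1. Ctsl was lower in KO in each group examined, at 218 and 64.3 CPM in the early SP cells, 97.5 and 43.7 CPM in the mature SP cells and 2339 and 330 CPM in the DP reference. Over all calls, 356 of the 498 higher and 149 of the 153 lower genes kept theirs without, in each library, the cell with most UMIs of the gene. This check favours lower calls, since 1 cell is a larger share of the 132 KO than of the 316 WT members. The median of all genes fell from 0.17 to 0.12, and 219 genes were called lower.

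Immediate early genes, which respond to handling of cells as well as to signals, gave 3 calls up and 1 down of 14, with a median of 0.23. Dusp2, a MAP kinase phosphatase, read 206 and 380 CPM (0.89), Zfp36, an mRNA decay factor, gave 0.74, and Jund read 604 and 389 CPM (−0.63). Their part in the other differences was not tested.

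Among markers of other cells, the 9 DP genes measured summed to 685 CPM in WT and 710 CPM in KO, with Cd8b1, which CD8 SP cells also express, at 497 and 430 CPM, and 104 of 316 WT and 33 of 132 KO members held 3 or more of their UMIs. Of the 6 tested, Dntt (48.1 and 85.8 CPM, 0.84) and Arpp21 (25.6 and 50.5 CPM, 0.98) were called higher. The summed CPM of 7 B cell genes was 78.3 in WT and 67 in KO, with 4 and 2 of them at 0, that of 7 macrophage genes 3.66 and 2.35, with 3 and 6 at 0, and that of 7 dendritic genes 30.7 and 14.1, with 3 and 4 at 0. Gamma-delta genes summed to 35.7 and 79.9 CPM and innate-like lymphocyte genes to 52.2 and 126 CPM, most of the latter in KO from the 1 cell rich in Xcl1. Zbtb16, the factor that defines innate-like T cells, had 27 UMIs in 4 WT members and none in KO members. Epithelial genes summed to 7.79 and 8.23 CPM and erythroid genes to 7.33 and 1.18 CPM. At least 3 UMIs of proliferation genes were found in 55 WT and 21 KO members, and of the 5 such genes tested 1 was called higher and 1 lower. Of 8 housekeeping genes 1 was called higher, with a median of 0.11. With the members that held 3 or more UMIs of B, macrophage, dendritic or proliferation markers left out, 356 genes were called higher and 101 lower, of which 214 and 62 were among the main calls.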

How the data were processed

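Single-cell 3′ libraries (10x Genomics Chromium) of 1 WT and 1 KO thymus pool were analysed. The authors deposited raw UMI counts per gene and cell with their cell annotation, made with Cell Ranger 3.0.2, STAR and Seurat on mm10 per the submitters' processing notes. Cells were assigned to a library by the name they carry (Cdc45 in place of Cdc42) and to groups by the deposited clusters. All 20282 genes and 13683 cells were kept. 17 barcodes occurred in both libraries, none in a member. No doublet caller was run, and possible doublets were instead left out as alternatives. Counts were summed per library and group (Python 3.11.15, numpy 2.4.6, scipy 1.17.1, pandas 2.3.3), 0.5 was added, and exact conditional binomial 95% intervals were computed. Differences between 2 such ratios have intervals from a normal approximation. Genes with 50 or more UMIs were compared, and the procedure was tested on simulated data. The simulated counts held counting error only, so that test does not cover UMIs gathered in single cells or differences between mice. Alternative scalings came from edgeR 4.0.16 (TMM) and DESeq2 1.42.0 (size factors) in R 4.3.3, used for factors only. Thinning drew 2000 UMIs a cell.

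Named genes were Cdc42, the 3 markers, the genes of the lists, the 12 highest and 12 lowest ratios among genes with at least 100 UMIs without ribosomal protein and mitochondrial genes, and the 10 highest and 10 lowest against each other SP group. Members, lists and rules were chosen with earlier results of these data known, so none is independent support. Gene annotation was GENCODE for GRCm38. Intervals cover counting error, not differences between mice. Some genes and 1 gene list are not reported here.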

Additional observations from a re-analysis of the deposited data

Results flagged for a closer look

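Each of these genes was called in one direction in the later SP cells and in the other in a neighbouring SP group, with 1 library per condition, so the difference over mice was not tested. Against the early SP cells, Ifi27l2a gave −1.04 in the members and 0.83 in the early cells, Nfkbid 1.02 and −1.28, Tpi1, a glycolytic enzyme gene, 0.64 and −1.09, and Nrgn, which encodes a calmodulin-binding protein, 0.83 and −0.80. Against the mature SP cells, Nr4a1 gave 0.76 and −0.79, Nrgn 0.83 and −1.39, and S100a6, a calcium-binding protein gene, −1.54 and 2.22. Nrgn came from 21 WT and 25 KO members, with 85 of 304 and 84 of 211 UMIs in 1 cell each, and S100a6 from 8 members of each library. Tpi1 gave 0.34 without the cell with most of its UMIs, where it was no longer called.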

How the results depend on the processing

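No paired analysis was possible because each condition had 1 library. The counts of genes called higher and lower in KO, 498 and 153, became 269 and 278 with totals that leave out ribosomal protein and mitochondrial genes, 197 and 380 with TMM, 228 and 326 with DESeq2 size factors and 217 and 344 relative to the median gene, for which the median of all genes was 0.0485, −0.0226, 0.0110 and 0. They were 220 and 85 in thinned cells, 232 and 93 in Cd4-only members, 181 and 80 in Cd8-only members, 290 and 99 at a minimum of 100 UMIs, and 104 and 65 at a size of 2-fold. The lower calls fell to 101 without members holding other markers. Thinning gave coreceptor shares of 20.1% Cd4 only, 8.60% both and 36.3% neither in WT, and 17.8%, 15.5% and 48.8% in KO, and the share ratio of members was 0.476 with clusters 6 and 7 as the denominator. In Cd8-only members H2-Q7 turned to 0.18, Nkg7 to 0.43 and Mcm5, a replication gene at −0.60 over all members, to 0.74, in Cd4-only members Nr4a1 to −0.0355 and Nrgn to −0.27, and without the 5% of members with most UMIs Cks2 to −0.0255 and Xcl1 to −2.05; the cause was not tested. Over all alternatives the median ranged from −0.93 to −0.57 for the interferon list, from −0.54 to −0.23 for MHC class I, from 0.26 to 0.63 for early SP genes and from −0.22 to 0.15 for late SP genes. The alternatives without the cell with most UMIs of a gene and with weighted coreceptor classes were chosen after seeing the data. Genes under 50 UMIs in a subset have no value there.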
